A study of Mus musculus with 38 samples.

Results

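Primary mouse embryonic fibroblasts of wild-type (WT) genotype were compared 3 h after the addition of tumor necrosis factor (TNF) with untreated cells. The comparison used 4 of the 38 libraries of the study, 2 of cells given TNF at 10 ng/ml and 2 of cells given none, and it covered every gene that passed a filter on low counts, which left 13843 of the 45706 genes in the deposited table. Cells of both groups came from C57BL/6 embryos, were primary cultures rather than a line, and had been kept overnight in 0.5% bovine calf serum, so the untreated cells were serum-starved too. The study measured poly(A) RNA in WT cells and in cells homozygous for an allele labelled RelA-TA-KI, a knock-in at the gene of the NF-kB subunit RelA, and gave them TNF, bacterial lipopolysaccharide (LPS) or the double-stranded RNA analog Poly(I:C) for 0.5, 1, 3 or 8 h. WT libraries at 1 h and 8 h of TNF, RelA-TA-KI libraries untreated and at 3 h of TNF (2 each), and single WT libraries untreated or given LPS at 100 ng/ml or Poly(I:C) at 20 ug/ml for 3 h served for comparison. The labels do not say how many embryos a culture came from or whether embryos were pooled, so the p-values measure only the spread between these libraries.

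TNF is a cytokine of macrophages and other cells whose receptor activates the kinase IKK. IKK marks the IkB inhibitors for destruction and so frees NF-kB dimers, chiefly of RelA (p65) and p50, to enter the nucleus and bind kappa B sites in promoters and enhancers. Fibroblasts respond by secreting chemokines and cytokines and by displaying adhesion molecules that recruit and activate leukocytes, and among the induced genes are the IkB proteins and other inhibitors that end the signal.

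The untreated libraries held 6715022 and 9590932 counts and the 3 h libraries 6893075 and 9360967 counts. The log2 CPM of replicates correlated at r = 0.98 across genes in both groups. The 13 fibroblast markers summed to 25587 and 33074 CPM (counts scaled to the size of each library) untreated and to 22883 and 32027 CPM at 3 h, while markers of T and B lymphocytes and of red cells each summed to below 1 CPM in all 4 libraries. The 20 macrophage and leukocyte markers summed to 1301 and 2030.1 CPM untreated and to 1226.4 and 2018.3 CPM at 3 h; each of the 20 had counts in at least 1 of the 4 libraries. None was called in the edgeR comparison (3 were higher and 4 lower in the fit with paired replicates), and replicate 2 was higher in both groups. In such bulk samples fewer cells of a type and less RNA per cell cannot be told apart. Replicate 1 also differed from replicate 2 in sex-linked RNA: Xist stood at 404 and 337 CPM in the replicate 1 libraries against 2.32 and 2.47 CPM in replicate 2, and the Y-linked Ddx3y at 0.145 and 0.148 CPM against 145 and 160 CPM, so the replicates came from different embryos.

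After 3 h of TNF, 1290 genes were higher (9.32% of those tested) and 881 lower (6.36%) than in untreated cells, by the edgeR quasi-likelihood test at a Benjamini-Hochberg adjusted p below 0.05; such genes are called below. Large changes were mostly rises. At least 2-fold changes were called for 343 genes that rose (2.48%) and 154 that fell (1.11%). Changes of at least 8-fold were called for 68 that rose and 3 that fell, and of at least 32-fold for 19 and 1. These counts use fitted folds, whose size is not fixed where a group had 0 counts. Il1b and Madcam1, at fitted log2 folds of 7.06 and 6.98, are among the 19 but are bounded only at 10.9- and 10.6-fold. The 3 falls of at least 8-fold were of predicted models or of genes averaging below 20 counts. The rises of at least 8- and 32-fold also included genes averaging below 20 counts, Il1b and Madcam1 among them. Other called genes without untreated counts, such as Spib and Bdkrb1, are likewise known only by a lower bound. The risen genes together took 8.92 and 8.72% of the length-scaled signal in untreated libraries and 13.2 and 13.8% at 3 h; the fallen genes took 4.11 and 4.42% untreated and 2.77 and 2.89% at 3 h. In every called gene both 3 h libraries lay on the same side of both untreated libraries, a separation that 26% of all tested genes showed upward and 26.4% downward. Pairing libraries of the same replicate number within a genotype raised the calls to 2068 higher and 1781 lower. Upper-quartile scaling changed the split to 1065 higher and 1140 lower, and the total fell from 2171 to 1067 without untreated replicate 2, to 1434 without 3 h replicate 2 and to 593 when the 4 libraries were fitted alone.

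**Figure D1:**
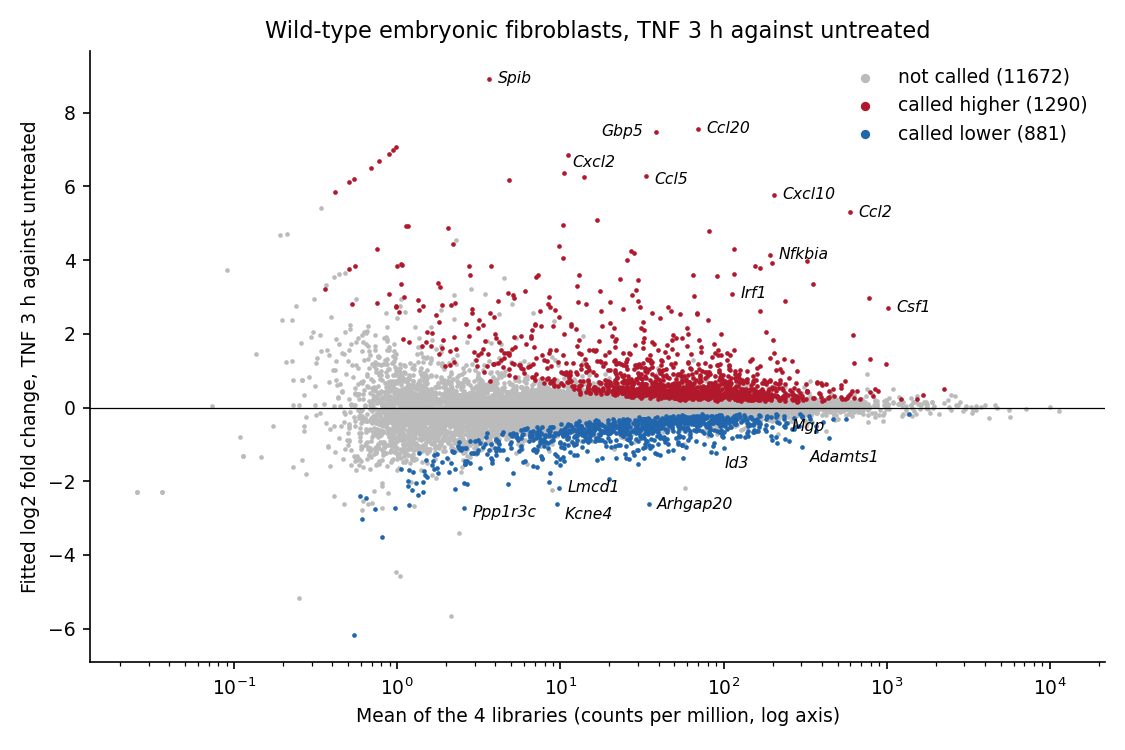
Each point is a gene; the horizontal axis is its mean over the 4 libraries in CPM on a log axis and the vertical axis its fitted log2 fold change, TNF 3 h against untreated. Rises (1290, red) reach farther from 0 than falls (881, blue), with Ccl20 at 7.57 and Arhgap20 at -2.63.

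**Figure D2:**
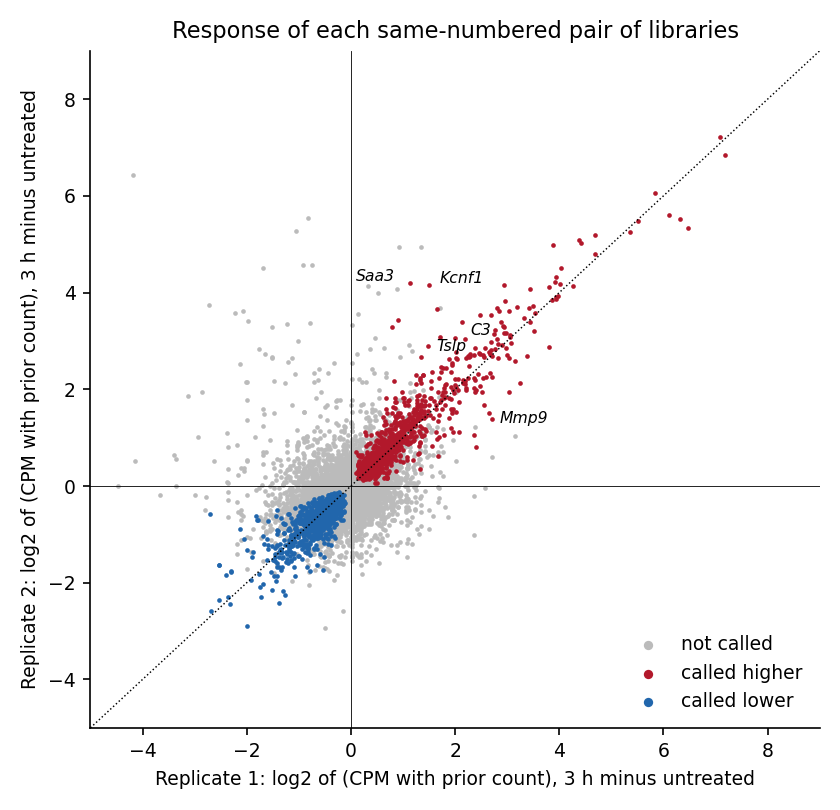
Each point is a gene; the axes are the 3 h minus untreated difference in log2 CPM (with a prior count) in replicate 1 and in replicate 2, and the dotted line marks equal responses. Called genes lie in the quadrants of same sign, and over all 13843 tested genes the differences of the replicates had r = 0.63.

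The NF-kB genes themselves were among the genes that rose. All 5 subunit genes were called higher, with a median log2 fold of 2.04 against -0.01 for all tested genes. Relb, which pairs with p52 in the alternative pathway, went from 15.2 and 13.6 CPM untreated to 104 and 130 CPM (log2 3.03, SE 0.13, adjusted p = 1.3e-09). Nfkb2, which encodes p100 and p52, went from 46.6 and 47.3 CPM to 273 and 302 CPM (log2 2.61, SE 0.07). Nfkb1, the gene of p105 and p50, went from 70.3 and 72.2 CPM to 280 and 306 CPM (log2 2.04, SE 0.07), so the libraries of each group lay close together and far from the other group. Rela rose less, from 71.9 and 72.6 CPM to 141 and 155 CPM (log2 1.03, SE 0.06), and Rel, the gene of c-Rel, rose by a log2 fold of 0.70 (SE 0.09).

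Of 17 genes that restrain NF-kB, 12 rose and none fell (median log2 fold 1.32). The IkB genes led them. Nfkbie, the gene of IkB epsilon, went from 4.93 and 6.35 CPM to 133 and 183 CPM (log2 4.78, SE 0.19, adjusted p = 6.1e-10). Nfkbia (ENSMUSG00000021025.7, chr12:55489411-55492647, minus strand, build mm10), the gene of IkB alpha, went from 22.9 and 18.8 CPM to 357 and 378 CPM (log2 4.15, SE 0.12). Tnfaip3, which encodes the ubiquitin-editing enzyme A20, went from 12.5 and 9.98 CPM to 208 and 232 CPM (log2 4.31, SE 0.16). Bcl3, a nuclear IkB protein, rose by a log2 fold of 3.18 (SE 0.26), Tnip3 by 2.62, Zc3h12a, an RNase that degrades cytokine mRNAs, by 2.12 and Nfkbib by 1.32. The member with the highest level that was not called, Rnf11, stood at 240 and 212 CPM untreated and 240 and 204 CPM at 3 h.

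The receptor-proximal machinery changed in part. Among 23 genes of TNF receptor signaling, 9 rose and none fell (median log2 fold 0.24). Birc3, the ubiquitin ligase cIAP2, went from 11.2 and 12.6 CPM to 71.5 and 87.9 CPM (log2 2.74, SE 0.17), and its relative Birc2 (cIAP1) from 21.0 and 27.1 CPM to 57.8 and 60.4 CPM (log2 1.28, SE 0.12). Tnf itself rose from 1.16 and 1.11 CPM to 9.88 and 16.3 CPM (log2 3.54, SE 0.52). The receptor gene Tnfrsf1a was not called, at 162 and 167 CPM untreated and 141 and 161 CPM at 3 h. Of 14 tested genes of the alternative NF-kB pathway and the TNF superfamily, 8 rose and 1 fell, and 5 in all were called without untreated replicate 2. Traf1, a signaling adaptor, rose by a log2 fold of 3.85 (SE 0.39), Tnfsf11, the gene of the osteoclast factor RANKL, by 2.44 (SE 0.28), from 3.34 and 2.82 CPM to 14.5 and 18.7 CPM, and Cd40, a co-stimulatory receptor, by 2.23 (SE 0.28). Ltbr, the lymphotoxin receptor, fell by 0.20 on the log2 scale (adjusted p = 0.047), a call that was lost when any of the 4 libraries was left out.

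Of 25 tested chemokines 15 rose and 1 fell, with a median log2 fold of 2.53 (2.52 with Ccl22, which had no untreated counts, set at its bound; the other list medians did not change with such genes at their bounds). Ccl20 (ENSMUSG00000026166.12, chr1:83116766-83119167, plus strand), the ligand of CCR6 on dendritic cells and lymphocytes, went from 0.87 and 0.61 CPM to 150 and 127 CPM (log2 7.57, SE 0.18, adjusted p = 5.1e-12). Cxcl2, a neutrophil attractant, went from 0.15 and 0.30 CPM to 17.4 and 24.1 CPM (log2 6.37, SE 0.57). Ccl5, a T cell and monocyte attractant, went from 0.73 and 0.91 CPM to 55.0 and 77.0 CPM (log2 6.29, SE 0.31). These 3 were near absent in untreated cells, whereas the monocyte attractant Ccl2 was present before treatment, at 26.1 and 32.8 CPM, and reached 1087 and 1251 CPM (log2 5.30, SE 0.17). The CXCR3 ligands rose as well. Cxcl10 went from 4.50 and 9.68 CPM to 328 and 479 CPM (log2 5.77, SE 0.38) and Cxcl9 from 0.87 and 1.01 CPM to 22.9 and 42.6 CPM (log2 5.10, SE 0.57). Cxcl12, which retains leukocytes and stem cells in stroma and is made by resting fibroblasts, fell from 311 and 371 CPM to 228 and 253 CPM (log2 -0.50, SE 0.10, adjusted p = 0.0039), a call lost without untreated replicate 2 or without 3 h replicate 1.

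Among 18 tested cytokines, 8 rose and none fell (median log2 fold 1.38); 5 were called without untreated replicate 1, and 5 without untreated replicate 2. Csf1, the growth factor of macrophages, was the most abundant of those that rose: it went from 301 and 238 CPM to 1797 and 1717 CPM (log2 2.71, SE 0.17). Lif went from 11.3 and 9.88 CPM to 60.2 and 46.3 CPM (log2 2.33, SE 0.22) and Il6 only from 0.58 and 0.61 CPM to 2.95 and 3.12 CPM (log2 2.33, SE 0.48; not called without untreated replicate 2). Tslp, an epithelial and stromal cytokine, rose from 1.6 and 0.91 CPM to 4.87 and 8.27 CPM (log2 2.46). Il1rn, which encodes the antagonist of the interleukin-1 receptor, was not called, at 56.9 and 38.8 CPM untreated and 79.5 and 62.0 CPM at 3 h; its adjusted p was 0.028 with paired replicates. Ifnb1, the gene of interferon beta, had 0 counts in all 4 libraries, at totals of 6715022 to 9590932 counts.

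Adhesion molecules for leukocytes rose in 7 of 13 cases and fell in none (median log2 fold 1.33). Icam1, a ligand of leukocyte integrins, went from 36.0 and 40.9 CPM to 505 and 717 CPM (log2 3.99, SE 0.22). Vcam1 was higher still in level, from 169 and 183 CPM to 1143 and 1629 CPM (log2 2.98, SE 0.17). The selectin genes Sele and Selp, best known from endothelium, rose to 14.5 and 23 CPM and to 12.7 and 9.24 CPM from at most 1.6 CPM untreated (log2 4.39 and 3.16). The 10 endothelial markers summed to 93.4 and 71.8 CPM untreated and to 79.9 and 48.4 CPM at 3 h. Of 9 tested, 1, Tek, was called lower (not without untreated replicate 2). Which cells made the selectin RNA was not tested, and a marker sum cannot show it. Alcam, the most abundant member not called, stood at 220 and 194 CPM untreated and at 182 and 169 CPM at 3 h, and was called lower with paired replicates (adjusted p = 0.0013).

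Of 11 tested genes in the list of acute-phase and antimicrobial secreted proteins, which also holds Steap4, 6 rose and none fell (median log2 fold 2.65). The count was 2 without 3 h replicate 2, 3 without untreated replicate 2 and 2 when the 4 libraries were fitted alone. Ptx3, a soluble pattern recognition protein, went from 47.9 and 64.1 CPM to 359 and 482 CPM (log2 2.90, SE 0.24), and Steap4, a metalloreductase, from 1.89 and 3.93 CPM to 33.5 and 63.5 CPM (log2 4.0, SE 0.48). Saa3 differed between replicates: it went from 4.64 to 10.5 CPM in replicate 1 and from 0.91 to 20.8 CPM in replicate 2. Of 16 complement genes only C3, the central component, was called (6.25% higher, against 9.32% of all tested genes). With paired replicates 2 were higher and 2 lower. C3 went from 6.24 and 3.83 CPM to 28.3 and 42.4 CPM (log2 2.86, SE 0.42). C1qb, mainly a macrophage product, stood at 71.2 and 122 CPM untreated and 56.3 and 112 CPM at 3 h.

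Promoters of several of these genes carry a kappa B motif, searched for as GGGANTTTCC or GGGGNTTTCC on either strand from 250 bases before to 50 bases after each RefSeq gene start (GRCm38.p6). Of the genes tested, 10592 had at least 1 window, 13582 windows in all. The motif was present in 26 of 321 windows (8.1%, exact 95% interval 5.36 to 11.6%) of genes that rose at least 2-fold, 16 of 986 (1.62%) of those that rose less, 4 of 751 (0.533%) of those that fell less than 2-fold and 0 of 155 of those that fell at least 2-fold, which allows up to 2.35%. It was present in 0.633% of windows of genes not called and in 0.869% of all windows. Windows of alternative starts of a gene can overlap, so the intervals cover counting error only. The interferon-response core GAAANNGAAA was present in 5.61% of windows of genes that rose at least 2-fold and 3.12% of all windows, and the AP-1 motif TGANTCA in 8.41% and 5.30%. The SRF motif (CArG box) was present in 0.935% and 1.32%. A match is a description of the letters and not evidence of binding, and kappa B sites also lie in enhancers outside these windows.

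The 6 stretches printed here, each upstream of the start of a gene with a large rise, show the motif in capitals, 5′ to 3′ on the gene's strand, with the reverse complement form where the motif lies on the other strand.
Ccl20 (chr1:83116641-83116740, plus): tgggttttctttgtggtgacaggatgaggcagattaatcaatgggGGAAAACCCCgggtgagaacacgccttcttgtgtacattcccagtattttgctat
Gbp5 (chr3:142496812-142496911, plus): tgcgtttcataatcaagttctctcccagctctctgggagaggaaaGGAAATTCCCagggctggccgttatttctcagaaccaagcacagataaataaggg
Cxcl2 (chr5:90903757-90903856, plus): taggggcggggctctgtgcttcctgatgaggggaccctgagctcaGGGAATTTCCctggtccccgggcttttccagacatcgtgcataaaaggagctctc
Csf1 (chr3:107760569-107760668, minus): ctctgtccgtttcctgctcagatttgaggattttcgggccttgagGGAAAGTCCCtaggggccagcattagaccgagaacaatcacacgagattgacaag
Nfkbia (chr12:55492648-55492721, minus): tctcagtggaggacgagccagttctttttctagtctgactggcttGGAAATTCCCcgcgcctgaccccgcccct
Tnfaip3 (chr10:19015411-19015467, minus): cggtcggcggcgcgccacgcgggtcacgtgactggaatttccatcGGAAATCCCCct
Counted from the gene start, the first base of the motif lay at -80 in Ccl20, -77 in Gbp5, -97 in Cxcl2, -154 in Csf1, -29 in Nfkbia and -12 in Tnfaip3. B2m, the invariant chain of MHC class I, also carries the motif (at -126) but was not called: it stood at 404 and 474 CPM untreated and at 474 and 577 CPM at 3 h (adjusted p = 0.26, and 0.0051 with paired replicates).

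**Figure D3:**
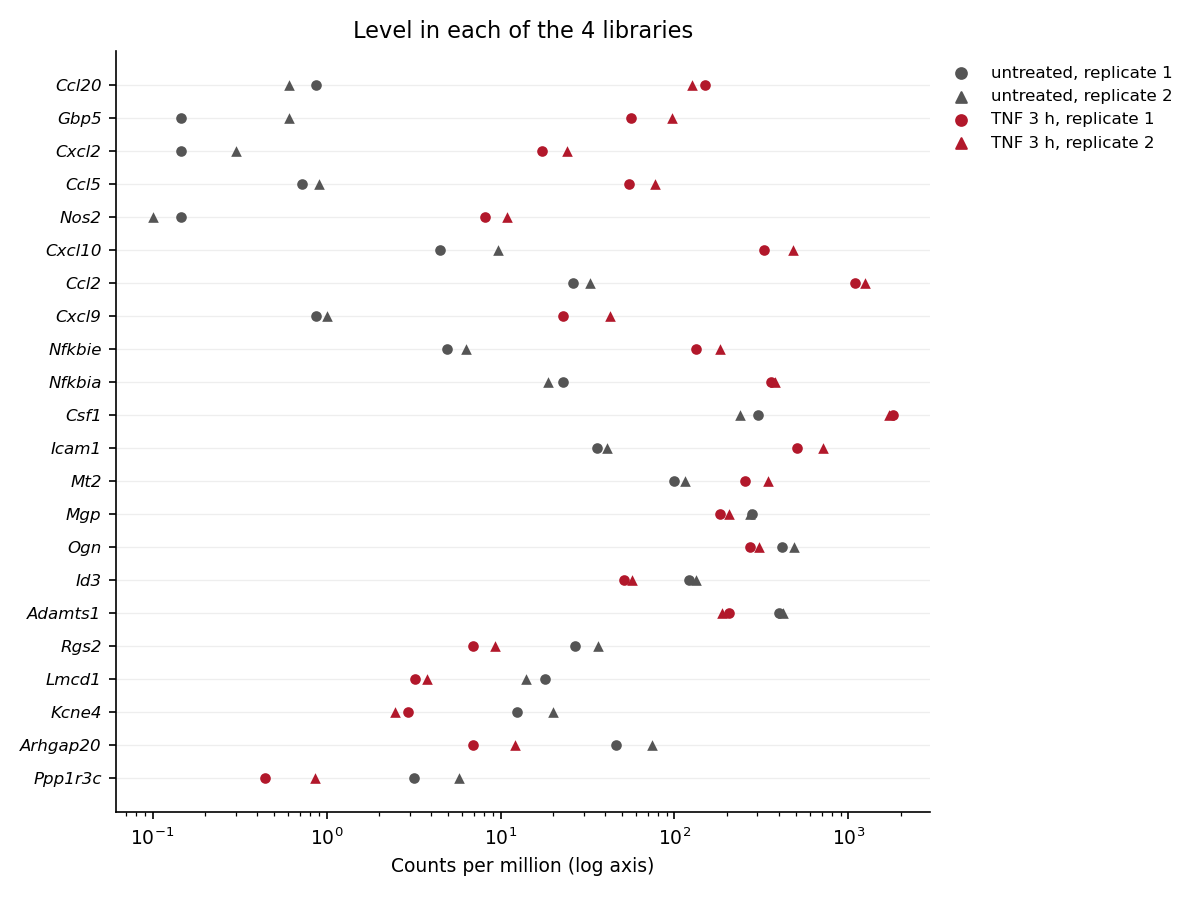
Each row is a gene and each point a library, in CPM on a log axis (grey untreated, red TNF 3 h, circles replicate 1, triangles replicate 2). In each of the 22 genes shown, as in every called gene, the 2 groups do not overlap, from Ccl20 at the top, at 0.87 and 0.61 against 150 and 127, to Ppp1r3c at the bottom, at 3.19 and 5.75 against 0.44 and 0.86.

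Genes known as interferon targets rose unevenly. Among 16 guanylate-binding proteins and immunity-related GTPases, which attack intracellular pathogens, 10 rose and none fell (median log2 fold 2.32). Gbp5 (ENSMUSG00000105504.2, chr3:142493978-142522344, plus strand) went from 0.15 and 0.61 CPM to 55.9 and 97.1 CPM (log2 7.48, SE 0.52) and Gbp2 from 14.8 and 25.5 CPM to 219 and 368 CPM (log2 3.83, SE 0.31). Both were higher in replicate 2 than in replicate 1 in both groups. Irgm2 was not called, at 15.8 and 34.8 CPM untreated and 37.7 and 69.7 CPM at 3 h, but its adjusted p was 1.7e-06 with paired replicates. Several of these genes have near-identical neighbours, and counts may be split between them.

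Of 39 antiviral interferon-stimulated genes, 10 rose and none fell (median log2 fold 0.52); 20 rose with paired replicates, 5 without 3 h replicate 2, 6 without untreated replicate 1 and 3 when the 4 libraries were fitted alone. Parp14, an ADP-ribosyltransferase, went from 15.2 and 35.8 CPM to 100.3 and 171 CPM (log2 2.37, SE 0.41), and Dtx3l, a ubiquitin ligase, from 27.0 and 42.7 CPM to 91.6 and 129 CPM (log2 1.65, SE 0.26). Other well-known members showed no such difference: Isg15, a ubiquitin-like modifier, stood at 12.8 and 41.0 CPM untreated and at 16.8 and 40.7 CPM at 3 h (adjusted p = 0.95). Here the replicates differed more than the groups. Of 14 IRF and STAT factors, which carry interferon and cytokine signals, 3 rose (4 higher and 1 lower with paired replicates). Irf1 went from 21.8 and 25.7 CPM to 174 and 232 CPM (log2 3.09, SE 0.17), Irf2 from 21.6 and 24.3 CPM to 37.6 and 52.0 CPM (log2 0.97, SE 0.16) and Stat5a from 19.7 and 22.6 CPM to 45.7 and 44.1 CPM (log2 1.08, SE 0.12).

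Antigen presentation by MHC class I had 11 of 22 genes higher and none lower (median log2 fold 0.89), and 17 higher with paired replicates. H2-K1, a classical class I heavy chain, went from 53.8 and 63.9 CPM to 138 and 207 CPM (log2 1.55, SE 0.31) and Psmb10, a catalytic subunit of the immunoproteasome, from 12.5 and 16.3 CPM to 42.2 and 56.6 CPM (log2 1.77, SE 0.21). H2-Q4 rose by a log2 fold of 2.66, H2-Q6 by 4.45 and H2-Q7 by 2.99, but these heavy chains are close copies whose reads may be misassigned. Of 4 tested class II genes, Cd74, the invariant chain, was called (log2 2.57, SE 0.57), from 1.02 and 1.11 CPM to 4.42 and 8.17 CPM; its call was lost without untreated replicate 2 or 3 h replicate 2.

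Receptors for cytokines and their inhibitors rose in 14 of 25 cases and fell in none (median log2 fold 0.60), and fitting the 4 libraries alone called 7. Il15ra, which presents interleukin-15, went from 2.32 and 1.71 CPM to 23 and 25.1 CPM (log2 3.60, SE 0.25). Il1rl1, the interleukin-33 receptor ST2, was abundant and differed between replicates, at 351 and 161 CPM untreated and 1169 and 824 CPM at 3 h (log2 1.96, SE 0.41), and its call was lost without untreated replicate 2. Genes of both chains of the interferon gamma receptor and of the interferon alpha and beta receptor rose: Ifngr2 by a log2 fold of 0.99 (SE 0.06), Ifngr1 by 0.89, Ifnar2 by 0.83 and Ifnar1 by 0.60, the Ifnar1 call being lost without untreated replicate 1 or 3 h replicate 2. Socs5 was the most abundant member not called, at 120 and 110 CPM untreated and 99.2 and 97.5 CPM at 3 h, and was called lower with paired replicates (adjusted p = 0.027).

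Among sensors of microbes 7 of 24 were higher and 2 lower (29.2 and 8.33%, against 9.32 and 6.36% of all tested genes). The share of falls was thus near that of all genes. Tlr2, the receptor of bacterial lipopeptides, went from 14.1 and 20.3 CPM to 161 and 269 CPM (log2 3.63, SE 0.39), and Ripk2, the kinase that carries NOD signals, from 23.6 and 21.3 CPM to 260 and 362 CPM (log2 3.80, SE 0.20). Tlr4, the LPS receptor, fell from 40.0 and 43.9 CPM to 26.5 and 28.7 CPM (log2 -0.60, SE 0.11, adjusted p = 0.0017). Cd14, its co-receptor, was not called at 23.5 and 30.7 CPM untreated and 39.4 and 63.2 CPM at 3 h, and had an adjusted p of 6.7e-05 with paired replicates. Clec4e, a receptor of fungal and mycobacterial glycolipids, rose from 0.73 and 0.61 CPM to 14 and 26.4 CPM (log2 4.94, SE 0.85).

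Enzymes of nitric oxide and immune metabolism rose in 6 of 15 cases and fell in none (median log2 fold 0.42). Nos2, the inducible nitric oxide synthase, went from 0.15 and 0.10 CPM to 8.11 and 11 CPM (log2 6.16, SE 0.66), Acod1, which makes itaconate, from 0 and 0.61 CPM to 21.4 and 34.1 CPM (log2 6.24, SE 0.70), and Gch1, which supplies the cofactor of nitric oxide synthase, from 6.24 and 3.93 CPM to 25.8 and 34.6 CPM (log2 2.61, SE 0.24). Nos2 and Acod1 are best known from macrophages. Macrophage markers were present in every library, and their sum at 3 h was no higher than in the untreated library of the same replicate, as given above. Such a sum does not show which cells made this RNA, and the source was not tested.

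Of 19 death receptor, caspase and necroptosis genes 8 rose and 3 fell, and the 11 calls fell to between 4 and 7 when any of the 4 libraries was left out. Fas, a death receptor, went from 20.6 and 19.7 CPM to 106 and 130 CPM (log2 2.56, SE 0.12), and Casp4, the caspase of intracellular LPS sensing, from 2.18 and 3.83 CPM to 19.0 and 26.4 CPM (log2 2.87, SE 0.26). Nlrp3, an inflammasome sensor, rose by a log2 fold of 3.30 (SE 0.54). In the BCL2 family, 2 of 16 rose and 1 fell (12.5 and 6.25%, near the 9.32 and 6.36% of all tested genes; 3 and 3 with paired replicates): Bid, which links death receptors to mitochondria, went from 30.3 and 31.6 CPM to 103 and 116 CPM (log2 1.82, SE 0.13), and Bcl2, a survival factor, fell from 24.4 and 21.0 CPM to 15 and 13.3 CPM (log2 -0.68, SE 0.15), a call lost without untreated replicate 1 or 3 h replicate 2.

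Of 30 immediate early transcription factors, 13 were higher at 3 h and 3 lower. Junb, a component of AP-1, went from 52.4 and 42.2 CPM to 140 and 136 CPM (log2 1.55, SE 0.09), and Ier3, a survival gene, from 26.5 and 21.5 CPM to 75.5 and 68.7 CPM (log2 1.59, SE 0.17). The nuclear receptors of the Nr4a family moved apart: Nr4a3 rose by a log2 fold of 1.92 (SE 0.25) while Nr4a1 fell from 14.6 and 14.9 CPM to 6.78 and 5.16 CPM (log2 -1.33, SE 0.16). Klf9 and Klf4 fell (log2 -0.82 and -0.51), and Egr1 was not called, at 101 and 109 CPM untreated and 107 and 89.4 CPM at 3 h. Among 17 MAP kinase phosphatases and Sprouty genes, which dampen growth factor signals, 3 rose and 2 fell (3 calls in all without untreated replicate 2, and 4 higher and 4 lower with paired replicates). Spry1 fell from 37.3 and 44.7 CPM to 18.1 and 18.8 CPM (log2 -1.15, SE 0.20), and Errfi1, an inhibitor of the EGF receptor, rose from 67.7 and 57.0 CPM to 141 and 112 CPM (log2 1.02, SE 0.16). Of 16 mRNA decay factors 6 rose and 1 fell (8 and 3 with paired replicates). Zfp36, which encodes tristetraprolin, a factor that destabilizes cytokine mRNAs, went from 18.9 and 18.9 CPM to 38 and 42.4 CPM (log2 1.1, SE 0.16).

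**Figure D4:**
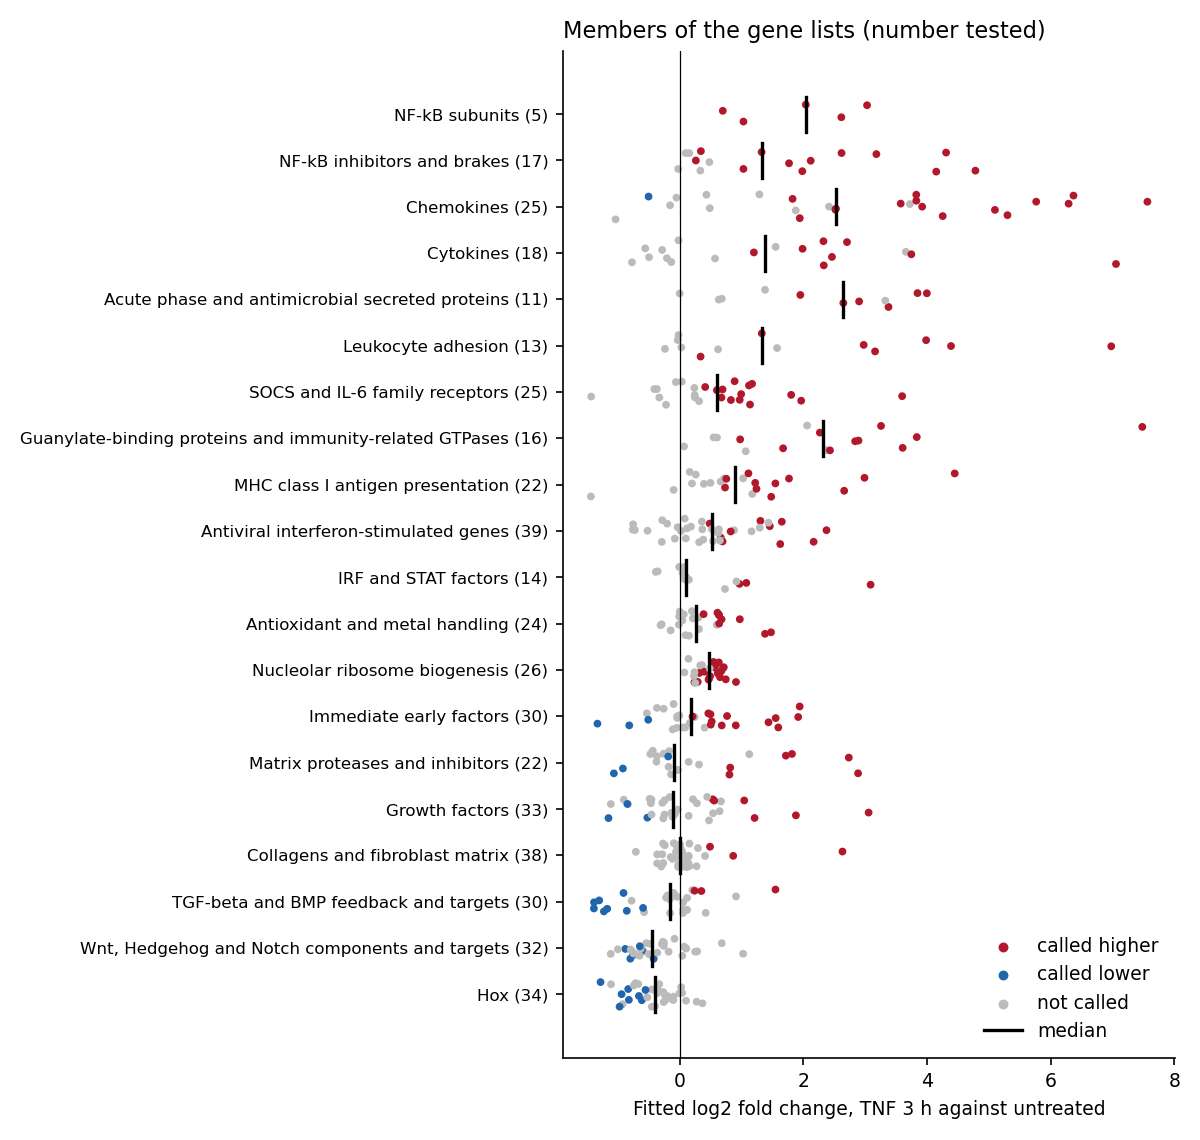
Each point is a tested gene of a list, at its fitted log2 fold change, TNF 3 h against untreated; red and blue points are called higher and lower, black bars mark list medians and the number tested is in parentheses. Medians reach 2.65 for the acute-phase list and 2.53 for chemokines. They lie below 0 at -0.46 for Wnt, Hedgehog and Notch genes and -0.39 for Hox genes.

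Of 22 matrix proteases and inhibitors, 6 rose and 3 fell (8 and 10 with paired replicates, 6 in all without untreated replicate 1). Mmp3, stromelysin, went from 7.69 and 8.27 CPM to 50.1 and 56.5 CPM (log2 2.74, SE 0.14) and Mmp13, a collagenase, from 12.9 and 21.5 CPM to 49.8 and 65.0 CPM (log2 1.72, SE 0.35). The aggrecanase genes Adamts1 and Adamts5 fell, Adamts1 from 398 and 421 CPM to 205 and 187 CPM (log2 -1.07, SE 0.10) and Adamts5 from 314 and 347 CPM to 187 and 163 CPM (log2 -0.92, SE 0.10). Of 38 collagens and other fibroblast matrix genes 3 were called, all higher (7.89%, near the 9.32% of all tested genes; 9 higher and 6 lower with paired replicates, none when the 4 libraries were fitted alone). Tnc, tenascin C, went from 1946 and 1809 CPM to 2799 and 2475 CPM (log2 0.49, SE 0.10), while Col1a1 stood at 10125 and 13304 CPM untreated and 8953 and 12970 CPM at 3 h.

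Among growth factors 6 of 33 were higher and 3 lower (18.2 and 9.09%, against 9.32 and 6.36% of all tested genes). With paired replicates 10 were higher and 12 lower. Pdgfb, a mitogen of mesenchymal cells, went from 5.80 and 5.95 CPM to 50.4 and 47.7 CPM (log2 3.06, SE 0.17), and Fgf7, which acts on epithelium, from 35.1 and 37.6 CPM to 87.9 and 81.0 CPM (log2 1.21, SE 0.07). Kitl, the stem cell factor, fell from 66.4 and 68.4 CPM to 29.0 and 31.5 CPM (log2 -1.15, SE 0.11) and Tgfb3 from 311 and 297 CPM to 193 and 146 CPM (log2 -0.85, SE 0.18; not called without 3 h replicate 2). Igf2, the most abundant member, was not called, at 5975 and 5599 CPM untreated and 5671 and 5289 CPM at 3 h.

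Developmental pathways had more falls than rises. Of 30 genes of TGF-beta and BMP feedback, 8 fell and 3 rose (median log2 fold -0.16; 12 and 6 with paired replicates). Id3, an inhibitor of bHLH factors, fell from 121 and 132 CPM to 51.3 and 56.6 CPM (log2 -1.23, SE 0.10, adjusted p = 8.8e-07), and Bmp4 itself fell from 67.6 and 58.3 CPM to 31.0 and 25.0 CPM (log2 -1.17, SE 0.18). Id4 fell by 1.30 on the log2 scale, Id1 by 0.86, the pseudoreceptor Bambi by 1.39 and the inhibitory Smad6 by 0.91. Bmp2 went the other way, from 8.85 and 7.97 CPM to 23.2 and 25.8 CPM (log2 1.55, SE 0.23).

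In the Wnt, Hedgehog and Notch list 6 of 32 genes fell and none rose (median log2 fold -0.46; 14 lower and 1 higher with paired replicates, and 1 lower when the 4 libraries were fitted alone). Hes1, a Notch target, fell from 52.9 and 44.0 CPM to 26.7 and 25.8 CPM (log2 -0.88, SE 0.12), and Dkk2, a modulator of Wnt signals, from 40.0 and 40.8 CPM to 26.5 and 20.3 CPM (log2 -0.80, SE 0.15). Gli2 and Gli3, the transcription factors of the Hedgehog pathway, fell by 0.76 and 0.61 on the log2 scale, the Gli2 call being lost without untreated replicate 2 or either 3 h library. Hox genes, which keep the positional identity of fibroblasts, fell in 8 of 34 cases and rose in none (median log2 fold -0.39), and 4 were called without 3 h replicate 2 and 5 without 3 h replicate 1. Hoxd12 fell from 17.8 and 18 CPM to 7.67 and 7.09 CPM (log2 -1.28, SE 0.23), and Hoxa13 from 24.8 and 25.0 CPM to 11.4 and 14.4 CPM (log2 -0.94, SE 0.16). Of the fibroblast markers, Twist1 fell (log2 -0.70, SE 0.09) from 86.6 and 101 CPM to 57.4 and 58.5 CPM, and its paralog Twist2 rose (log2 1.07, SE 0.15) from 37.0 and 43.5 CPM to 82.0 and 87.8 CPM.

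With predicted models and genes averaging below 20 counts left out, Ppp1r3c, Arhgap20 and Kcne4 had the falls of largest fold. Ppp1r3c, which targets a phosphatase to glycogen, went from 3.19 and 5.75 CPM to 0.44 and 0.86 CPM (log2 -2.72, SE 0.52; the call was lost without untreated replicate 2). Arhgap20, a GTPase-activating protein, went from 45.8 and 74.1 CPM to 6.93 and 12.1 CPM (log2 -2.63, SE 0.36), and Kcne4, a subunit of potassium channels, from 12.5 and 20.1 CPM to 2.95 and 2.47 CPM (log2 -2.61, SE 0.34). In all 3 both TNF libraries lay below both untreated libraries, which the choice of these genes required and which held for every gene called lower. Lmcd1, a LIM-domain cofactor of muscle, fell by 2.17 on the log2 scale (SE 0.26), the prolactin receptor Prlr by 2.08, the noncoding RNA Trp53cor1 by 2.07, the transcription factor Atoh8 by 2.02 and Rgs2, which shortens G-protein signals, by 1.95 (SE 0.25). Rgs16, of the same family, rose from 16.1 and 10.7 CPM to 90.1 and 72.9 CPM (log2 2.63, SE 0.21). The contractile and SRF target list had 1 rise (Tagln2) and 1 fall (Lmcd1) among 24 genes (4.17% each, against 9.32 and 6.36% of all tested genes). With paired replicates it had 9 rises and 3 falls. Acta2, smooth muscle actin, stood at 2749 and 1936 CPM untreated and 3430 and 2369 CPM at 3 h (adjusted p = 0.50, and 0.0056 with paired replicates).

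Ranked by the change in length-scaled level, which compares genes per kilobase and is scaled to the same total in each library, other genes led. Ccl2 gained most, from 87.9 and 113 to 3469 and 4055 on that scale. Ccl7, another monocyte attractant, went from 100.6 and 135 to 1485 and 1912, and Mt2, a metal-binding metallothionein, from 686 and 813 to 1657 and 2285 on the same scale. Csf1, Icam1, Nfkbia, Sqstm1 and Cxcl10 followed; Sqstm1, the autophagy adaptor p62, was the least changed of these in fold (log2 1.18, SE 0.09) and among the highest in level before treatment, at 702 and 701. The largest losses were smaller. Mgp, an inhibitor of calcification, went from 1782 and 1772 to 1106 and 1261 (log2 -0.50, adjusted p = 0.014; lost without untreated replicate 1 or 2 or 3 h replicate 1) and Ogn, a small proteoglycan, from 626 and 753 to 387 and 443 (log2 -0.65, SE 0.09).

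Metabolic and housekeeping groups moved by small folds. Of 26 genes of nucleolar ribosome assembly 18 rose and none fell, with a median log2 fold of only 0.48; the count was 10 without untreated replicate 2, 11 without 3 h replicate 1 and 7 when the 4 libraries were fitted alone. Rrs1, an assembly factor, went from 40.2 and 34.7 CPM to 68.4 and 71.7 CPM (log2 0.91, SE 0.11) and Polr1b, a subunit of RNA polymerase I, from 20.0 and 19.8 CPM to 36.3 and 30.6 CPM (log2 0.74, SE 0.12). Npm1, the most abundant member, was not called (289 and 294 CPM untreated, 313 and 302 CPM at 3 h), and 2 of 75 ribosomal protein genes were called (0 without untreated replicate 2, and 1 without either 3 h library). Of 24 antioxidant and metal-handling genes 9 rose and none fell. Sod2, the mitochondrial superoxide dismutase, went from 51.1 and 43.8 CPM to 106 and 140 CPM (log2 1.38, SE 0.16), and the iron importer Slc11a2 from 57.4 and 47.1 CPM to 89.7 and 114 CPM (log2 0.97, SE 0.13). The iron exporter Slc40a1 fell from 39.9 and 54.2 CPM to 13.1 and 23.1 CPM (log2 -1.36, SE 0.23).

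Of 228 solute carriers 18 rose and 12 fell (7.89 and 5.26%, against 9.32 and 6.36% of all tested genes), and of 351 numbered zinc finger genes 21 rose and 16 fell (5.98 and 4.56%). The 30 solute carrier calls fell to 18 without untreated replicate 2, and the 37 zinc finger calls to between 19 and 23 when any of the 4 libraries was left out. Circadian genes had 3 rises and 4 falls of 18 (16.7 and 22.2%), and 2 or 3 calls in all when any of the 4 libraries was left out; Dbp, a clock output factor, fell from 17.4 and 23.1 CPM to 9.29 and 8.81 CPM (log2 -1.17, SE 0.18). Cell cycle genes had 2 rises and 3 falls of 33 (6.06 and 9.09%), and endoplasmic reticulum stress genes 3 rises and 1 fall of 21 (14.3 and 4.76%). Among p53 targets 3 of 20 rose (15%), and in cholesterol and fatty acid synthesis 1 of 25 fell (4%). Leaving out any of the 4 libraries gave 1 or 2 calls in the cell cycle list, 0 to 2 in the endoplasmic reticulum stress list and 0 in the cholesterol list. In the glycogen, glucose and lipid list 6 of 26 rose and 3 fell (23.1 and 11.5%; 2 calls without untreated replicate 2); the hexose transporter Slc2a6 went from 7.25 and 6.56 CPM to 28.6 and 38.1 CPM (log2 2.29, SE 0.17).

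Genes without a single count in both untreated libraries were also called. Spib, an Ets factor known from B and plasmacytoid dendritic cells, had 0 and 0 counts untreated and 41 and 80 at 3 h, at least 41.0-fold higher than 3 counts over both untreated libraries would give. Il1b had 9 and 24 counts (at least 10.9-fold), Madcam1, a mucosal addressin, 11 and 20 (at least 10.6-fold) and Bdkrb1, the inducible bradykinin receptor, 11 and 18 (at least 9.96-fold). Il1b was not called without untreated replicate 1 or 2 or 3 h replicate 2. The 20 macrophage markers summed to no more at 3 h than untreated in either replicate, as given above. The 10 T and B cell markers summed to 0.435 and 0.706 CPM untreated and 0.885 and 0.537 CPM at 3 h, higher in replicate 1 and lower in replicate 2. Which cells made the RNA of Spib and Il1b was not tested, and marker sums cannot show it.

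Against the WT times on either side, 16 genes stood higher at 3 h than at both 1 h and 8 h (0.116% of those tested) and 5 lower than at both (0.0361%), each difference tested by edgeR with the larger p taken. Singly, 1080 genes (7.8%) stood higher and 682 (4.93%) lower at 3 h than at 1 h, and 329 (2.38%) higher and 430 (3.11%) lower than at 8 h. Nr3c2, the mineralocorticoid receptor (ENSMUSG00000031618.11, chr8:76899442-77245012, plus strand), showed the largest such peak. It stood at 2.76 and 4.24 CPM untreated, 2.67 and 3.72 CPM at 1 h, 19.2 and 31.2 CPM at 3 h and 2.69 and 2.76 CPM at 8 h (log2 2.98 above 1 h and 3.21 above 8 h, adjusted p = 0.00061). Both 3 h libraries thus lay far above every library at the other times given.

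Phldb1, a protein of cell adhesion to matrix, stood at 159 CPM ± 9.8 (SD, n = 2) at 1 h, 338 ± 1.0 at 3 h and 191 ± 30 at 8 h. Nfkb1 stood at 105 CPM ± 3.8 at 1 h, 293 ± 19 at 3 h and 195 ± 9.5 at 8 h, and Smad3, a carrier of TGF-beta signals, at 115 ± 1.8, 188 ± 6.0 and 127 ± 1.1. Gfpt2 and Uap1, enzymes of hexosamine synthesis, both peaked, Gfpt2 at 34.4 ± 4.2, 80.7 ± 9.3 and 46.9 ± 0.90 CPM and Uap1 at 89.1 ± 0.42, 126 ± 3.6 and 68.8 ± 1.5 CPM. Col27a1, Stx11, Stat5a, Bahcc1, Ahdc1, Foxp4, C9orf72, Plekhg2, Glis2 and Ralb made up the rest of the 16. The genes in a trough were Zfp608, Dapk1, Mbd5, Sgk1 and Pard3. Dapk1, a death-associated kinase, stood at 67.0 CPM ± 2.3 at 1 h, 41.1 ± 2.8 at 3 h and 65.9 ± 2.6 at 8 h, and Sgk1, a kinase induced by serum and steroids, at 111 ± 13, 49.5 ± 1.4 and 73.2 ± 2.5 CPM. Ahdc1 and Sgk1 were not called at 3 h against untreated cells. The 0.5 h libraries were not part of this test. Ahdc1 stood at 89.7 CPM ± 3.8 at 0.5 h, above its 76.6 ± 3.6 at 3 h. Sgk1 stood at 57.0 CPM ± 1.3 untreated and at 107 ± 6.2 at 0.5 h. The 21 calls became 137 with paired replicates within genotype, 12 without 3 h replicate 1, 8 without 3 h replicate 2, 13 without 8 h replicate 2, 2 when only the 10 WT libraries were fitted and 0 with the libraries of these times alone (428 at an unadjusted p below 0.05 there).

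**Figure D5:**
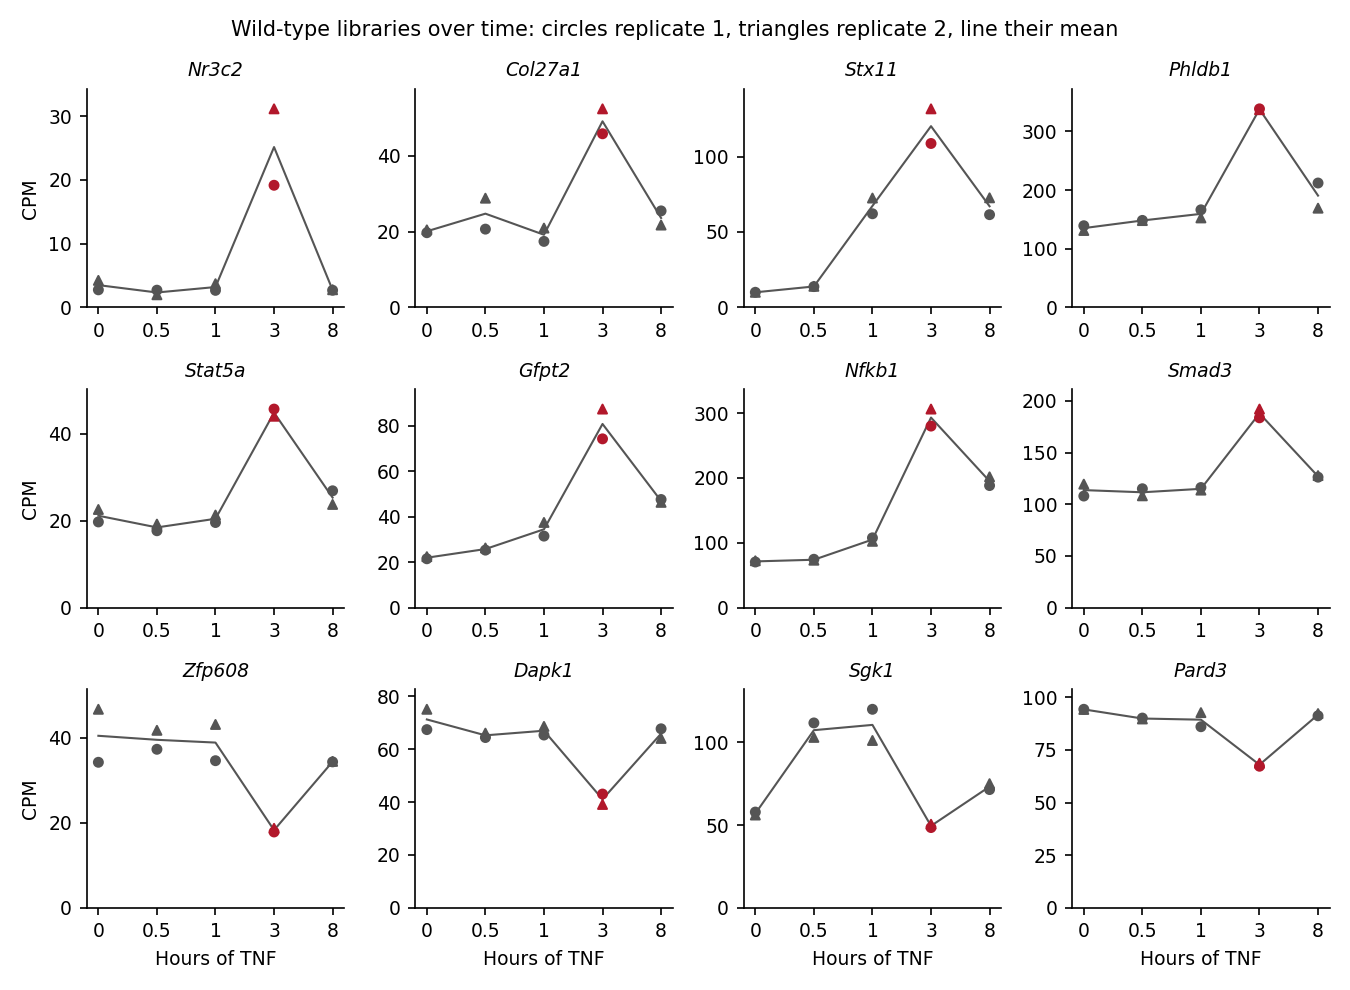
Each panel is a gene over the WT libraries; the horizontal axis is hours of TNF (equally spaced, not to scale), the vertical axis CPM starting at 0, points are libraries and the line joins the means of 2 replicates. The first 8 genes, from Nr3c2 to Smad3, stand highest at 3 h (red), and the last 4, from Zfp608 to Pard3, lowest.

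The response at 3 h differed between genotypes for 129 genes by the edgeR interaction test: the change in RelA-TA-KI cells was more negative or less positive than in WT for 101 (0.73%) and more positive or less negative for 28 (0.202%). Of the genes that rose in WT, 99 responded less in RelA-TA-KI and 5 more, and all 11 of those that fell in WT and differed had a difference of positive sign. The WT calls and the differences share the same WT libraries, which favors differences opposite in sign to the WT change. The split is therefore not independent of the calls. Ccl5 rose by a log2 fold of 6.29 in WT and of 0.24 in RelA-TA-KI (difference -6.06, adjusted p = 0.0021), and Nos2, Ptx3, Gbp2, Mmp3 and Psmb10, which rose in WT, had RelA-TA-KI folds between -0.30 and 0.14. Nr3c2 changed by 2.82 in WT and -1.67 in RelA-TA-KI (difference -4.49, adjusted p = 0.00022). Ccl20 and Ccl2, with 2 of the largest rises, were not among the 129, which does not show that their responses were equal. The 129 became 1035 with paired replicates within genotype, 66 without untreated WT replicate 1, 50 without WT 3 h replicate 2, between 52 and 76 without any of the 4 RelA-TA-KI libraries, and 44 when the 8 libraries were fitted alone.

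In a separate table with its own untreated WT library and 1 library for each agent, most of the genes that TNF raised were also higher with LPS. Of the 343 genes that rose at least 2-fold with TNF, 271 (79.0%) were at least 2-fold higher after 3 h of LPS, as were 10.2% of all tested genes, and 206 (60.1%) after Poly(I:C), as were 5.45% of all. These 271 made up 19.2% of the genes that were at least 2-fold higher with LPS. Of the 154 that fell at least 2-fold, 70 (45.5%) were at least 2-fold lower with LPS (8.19% of all) and 45 (29.2%) with Poly(I:C) (2.14% of all). Nr3c2 was again higher, at 4.67 CPM untreated, 107 with LPS and 41.2 with Poly(I:C), whereas Smad3, which TNF raised, stood at 129 CPM untreated, 106 with LPS and 112 with Poly(I:C). Single libraries allow no test of these differences.

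Some called genes had a wide gap between replicates. Saa3 rose by a log2 difference of 1.13 in replicate 1 and 4.20 in replicate 2, and Kcnf1, a potassium channel subunit, by 1.51 and 4.16. Tslp and C3 also rose more in replicate 2, and Mmp9, a gelatinase, more in replicate 1 (2.70 and 1.39). The calls of Saa3 and Kcnf1 were lost without untreated replicate 2 or 3 h replicate 2, and that of Mmp9 without untreated replicate 1 or 3 h replicate 2. In called genes the gap was usually far smaller: its median was 0.13 over the genes that rose and 0.15 over those that fell, on the same log2 scale. Calls favor genes whose libraries agree. Over all 13843 tested genes the responses of the replicates had r = 0.63.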

How the data were processed

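The submitters' processing notes list cutadapt 1.9.1, STAR, featureCounts 1.4.6 and the build mm10. Libraries came from 1 ug of total RNA with a stranded kit, 12 PCR cycles and single-end reads of 50 bases, per the labels' protocols. The deposited values are raw counts per gene in 1 table for TNF (20 libraries) and 1 for LPS and Poly(I:C), with gene lengths in bases. Annotation release, strandedness of counting and treatment of multimapping reads are not given in the sources used here, so antisense or overlapping genes and close copies cannot always be told apart. All 4 libraries had a group in the labels, and 0 columns were left out.

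Genes were filtered with filterByExpr on the 10 groups of the TNF table, scaled by TMM and tested with the edgeR 4.0.16 quasi-likelihood test in R 4.3.3 over all 20 libraries (1 mean per group, 10 residual degrees of freedom, biological coefficient of variation 10.2%), with Benjamini-Hochberg adjustment over the 13843 genes and a threshold of 0.05. Log2 folds are fitted values, and SE is the absolute log2 fold divided by the square root of F. CPM uses TMM-scaled totals, and replicate responses add a prior count of 2. LPS and Poly(I:C) folds compare single libraries, at a minimum of 5 CPM in either. The tests were also run on simulated counts drawn with a common dispersion and no replicate effect. Of made 2-fold rises and falls, 94 and 80% were called at 3 h against untreated cells. Of made genotype differences of that size, 62 and 54% were called. Such counts do not cover deviations shared by libraries of the same replicate number. Deviations of same-numbered WT libraries correlated at 0.161 to 0.529 over 10 pairs of times, so the numbers were taken to pair WT libraries; between genotypes the range was 0.00558 to 0.338. The paired fit adds the replicate number within genotype, with RelA-TA-KI numbers separate. Alternatives were RLE and upper-quartile scaling, other filters, DESeq2 1.42.0, fewer libraries, a test against a 1.5-fold change, and each library left out.

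The members, the 37 pathway lists, 4 families by symbol and 10 marker lists were chosen with earlier results of these data known. The naming rule took the 12 largest rises and 12 largest falls with at least 20 counts on average, up to 4 called members of each list, called members against its majority and its most abundant member not called, the 8 largest gains and losses in length-scaled level, genes at 0 in 1 group, 10 peaks and 6 troughs at 3 h, and the 6 widest gaps between replicates, without predicted models and sex-linked genes. The largest rises, the largest falls and the widest gaps were taken from called genes without overlap between the 2 groups. Rel, Tnip3, Nfkbib, Il6, Lif, Vcam1, Isg15, H2-K1, the interferon receptor genes, Bmp4, Id1, Smad6, Gli3, Hoxd12, Hoxa13, Twist1, Twist2, Slc40a1, Uap1, Foxp4, C9orf72, Plekhg2, Glis2, Ralb, Ccl22 and Tek were named after their values were seen. A few genes that the rule named are not reported here. Promoter sequences are from RefSeq (GRCm38.p6).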

Additional observations from a re-analysis of the deposited data

Results flagged for a closer look

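For 40 of the genes named above the 3 h response differed between WT and RelA-TA-KI cells in the edgeR interaction test, 35 with a negative and 5 with a positive difference (RelA-TA-KI response minus WT response, log2 scale, 2 libraries a group, adjusted p from 5.6e-05 to 0.049). Over all tested genes the shares were 0.73% negative and 0.202% positive. Many named genes were chosen by their change in the same WT libraries, so the counts of named genes do not test the direction. The cause was not tested. Among NF-kB genes and inhibitors the difference was -2.84 for Nfkbie, -1.92 for Tnfaip3, -1.71 for Nfkbia, -1.19 for Nfkb1, -1.14 for Nfkb2 and -1.03 for Relb, and it was -1.34 for the ubiquitin ligase Birc2 and -2.725 for the NOD kinase Ripk2. All of these rose in WT, and the RelA-TA-KI log2 folds ran from -0.05 (Birc2) to 2.44 (Nfkbia).

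Among secreted and surface proteins it was -6.06 for Ccl5, -3.225 for Cxcl10, -1.42 for Csf1, -2.88 for Ptx3, -4.16 for Steap4, -2.56 for Icam1, -1.72 for Vcam1, -2.33 for Il15ra, -0.55 for Ifngr2, -1.89 for Fas and -2.60 for Mmp3. Among interferon targets, antigen presentation and immune enzymes it was -6.31 for Gbp5, -3.915 for Gbp2, -1.86 for Irf1, -2.20 for Dtx3l, -2.75 for H2-Q4, -4.89 for H2-Q6, -1.77 for Psmb10, -6.46 for Nos2, -1.84 for Casp4 and -0.84 for Bid.

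Of the genes with a peak at 3 h in WT, Nr3c2 (-4.49), Col27a1 (-1.655), Stx11 (-1.33), C9orf72 (-0.79), Bahcc1 (-0.60) and Ralb (-0.47) differed. The positive differences were those of immediate early factors and of the Notch target Hes1 (1.09): Nr4a1 (1.94), Egr1 (1.32), Klf4 (0.63) and Junb (0.62). Nr4a1, Klf4 and Hes1 fell in WT and had positive RelA-TA-KI folds of 0.61, 0.12 and 0.21.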

How the results depend on the processing

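With the replicate block the calls at 3 h rose from 2171 to 3556, and with the replicate block within genotype to 3849; the genes above or below both neighbouring times rose from 21 to 87 and 137, and the genotype differences from 129 to 774 and 1035. No call of a named gene was lost with either block. Left-out libraries gave 1067 to 1653 calls at 3 h, 8 to 17 for the neighbouring times and 50 to 180 for the genotypes. The libraries of the compared groups alone gave 593, 0 (428 at an unadjusted p below 0.05) and 44, and the 10 WT libraries 2 for the neighbouring times. Without a filter on low counts these times gave 60 and the genotypes 696. A test against a 1.5-fold change called 326 genes (261 higher, 65 lower), and DESeq2 gave 1605, 26 and 158. Of 219 named genes called at 3 h, 139 kept their call under all 13 alternatives and none reversed; 69 of 215 lost it in the fit of the 4 libraries alone, 55 without untreated replicate 2, 45 without 3 h replicate 2, 34 without 3 h replicate 1, 31 without untreated replicate 1 and 18 in DESeq2. Where a fit left 1 library in a group, that library was assumed to vary like the other groups. The causes of these changes were not tested.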

Other observations

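Tff1 (chr17:31161396-31165053), a peptide secreted by gastric epithelium, had 186 counts and Gkn1 (chr6:87345653-87350915), another gastric gene, 31 counts in untreated WT replicate 1 and 0 in the other 3 libraries of the comparison. Over all 20 TNF libraries Tff1 had counts in 3 and Gkn1 in 2. Neither passed the filter on low counts, and both were chosen after their values were seen. The 10 epithelial markers summed to 171 CPM in that library, 37.8 in untreated replicate 2 and 108 and 98.1 at 3 h.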
